A study of Mus musculus with 14 samples.

Results

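Solute carriers are membrane proteins that move small molecules across the plasma membrane or the membranes of organelles. The genes described here are the carriers of the Slc1, Slc3, Slc6, Slc7, Slc36, Slc38 and Slc43 families, most of which move amino acids. They were taken by gene symbol and by a sum of at least 140 reads over 14 libraries in the transcript with the most reads, with no use of a difference between groups. Of 40800 genes in the table, 61 had a matching symbol and 34 reached that minimum, while 27 did not. The 34 genes were Slc3a1 and Slc3a2 (2 of 2 symbols of the Slc3 family), Slc7a1 to Slc7a7 and Slc7a11 (8 of 15), Slc38a1 to Slc38a4, Slc38a6, Slc38a7, Slc38a9 and Slc38a10 (8 of 11), Slc1a2, Slc1a3, Slc1a4, Slc1a5 and Slc1a7 (5 of 7), Slc6a4, Slc6a6, Slc6a8, Slc6a9, Slc6a12, Slc6a15 and Slc6a17 (7 of 19), Slc36a1 and Slc36a4 (2 of 4), and Slc43a1 and Slc43a2 (2 of 3). Just inside the minimum stood Slc6a12 with 145 reads over the 14 libraries, Slc1a7 with 169 and Slc1a2 with 173, and just outside it Slc7a8 with 122, Slc1a1 with 109 and Slc6a7 with 83. Slc1a2 reached the minimum only through the libraries at 3 and 6 h without amino acids, where it was high. The symbol rule also takes in carriers of related solutes, among them Slc6a4 (serotonin), Slc6a6 (taurine), Slc6a8 (creatine) and Slc6a12 (betaine and GABA).

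Total RNA of mouse embryonic fibroblasts (MEFs), connective tissue cells cultured from embryos, was sequenced in 2 libraries for each of 7 groups. Cells were grown in high-glucose DMEM with fetal bovine serum, then washed and kept for 3, 6 or 12 h in medium lacking amino acids or lacking glucose, in both cases with dialyzed serum. For control cells (0 h) the protocol describes no such wash or change of medium. All cells were detached with trypsin and frozen with DMSO before sequencing, the starved cells in dialyzed serum and the control cells in undialyzed serum. This handling is part of every comparison with the control, and all 6 of those comparisons use the same 2 control libraries. Genotype, strain, passage and sex of the MEFs are not given in the sources used here, and the protocol mentions transfection while no sample label names a transfected construct. Whether the 2 libraries of a group are separate cultures is not stated, and p-values therefore reflect only how far these samples vary, which may be technical variation.

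Mammalian cells lose and gain amino acids through exchangers, which swap one amino acid for another, and through carriers driven by sodium, protons or the membrane potential. Many of the genes for plasma membrane carriers are known targets of ATF4, a transcription factor that is translated when uncharged transfer RNA or other stress leads to phosphorylation of the initiation factor eIF2. A smaller group of carriers sits in the lysosomal membrane and releases the products of protein breakdown, and some of these carriers report amino acid supply to the growth kinase mTORC1.

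The libraries held 35270767 to 55349659 reads when each gene was represented by 1 transcript. Levels are given as CPM, read counts adjusted for library size by TMM, and a gene is said to rise, fall or differ where edgeR's quasi-likelihood test over 17696 genes gave a Benjamini-Hochberg adjusted p under 0.05. Scaling matters for small changes: with plain library totals the median log2 fold change over all genes shifted by between -0.18 and 0.31, most of all between 12 and 3 h of amino acid starvation. Of 12 fibroblast markers 11 were detected (Lum was at 0 in all libraries), with a summed level of 2359 to 9561 CPM that was lowest after 12 h without amino acids (2578 and 2359 CPM). Summed markers of other cell types were 14.3 to 23.8 CPM for macrophages (Adgre1 and Tyrobp at 0), 4.21 to 23.6 CPM for endothelium, 0.74 to 6.29 CPM for skeletal muscle, 137 to 424 CPM for neural cells (Sox2 at 0), and at most 0.924 CPM for adipocytes (Cidec and Lep at 0) and epithelium. In such bulk samples, fewer cells of a type and less RNA per cell cannot be told apart.

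Together the 34 carriers took up a larger share of the reads in every starved library than in the control. They made up 0.234 and 0.236% of the reads of the control libraries. After 3, 6 and 12 h without amino acids they made up 0.663 and 0.654%, 0.746 and 0.737%, and 0.569 and 0.554%, and without glucose 0.367 and 0.356%, 0.403 and 0.40%, and 0.464 and 0.463%. The share peaked at 6 h of amino acid starvation and was highest at 12 h of glucose starvation, and no starved library overlapped the control. Few genes carried most of these reads: per kilobase of transcript, Slc3a2, Slc38a2, Slc6a6 and Slc7a5 were the 4 highest in the control, at 104, 94.3, 73.4 and 65.4 CPM per kb.

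All 34 carriers passed the filter on low counts. After 3 h without amino acids 21 rose and 8 fell against the control, where 27.9% of all genes tested rose and 32.1% fell. At 6 h 20 rose and 10 fell (all genes 32.3% and 33.3%), and at 12 h 18 rose and 9 fell (all genes 34.9% and 32.0%). At least 2-fold rises were found for 14, 17 and 15 carriers at these times, and for 9.89%, 12.5% and 13.1% of all genes. The median log2 fold change of the carriers was 0.78, 1.02 and 0.92, against -0.067, -0.007 and 0.057 over all genes. In all, 16 carriers were higher at all 3 times while 5 were lower at all 3 (all genes 15.6% and 15.6%). The 16 include Slc7a6, whose call at 12 h was lost under several alternatives, and Slc36a1, whose call at 3 h was. Without glucose, 15 carriers rose and 6 fell at 3 h (all genes 20.3% and 23.1%), 18 rose and 5 fell at 6 h (23.3% and 24.2%), and 17 rose and 7 fell at 12 h (30.4% and 28.0%). Of these, 9, 13 and 11 rose at least 2-fold, as did 4.70%, 4.88% and 8.06% of all genes. Medians were 0.46, 0.50 and 0.67 for the carriers and -0.040, -0.0082 and 0.0079 over all genes. In all, 13 carriers were higher at all 3 times while 3 were lower at all 3 (all genes 10.2% and 9.43%). The 13 include Slc6a12, which had 4 and 0 reads in the control libraries and whose call at 3 h was lost without certain single libraries. Slc1a2 was at 0 reads in both control libraries. It is among the carriers counted as risen, also at least 2-fold, at 3 and 6 h without amino acids. Because Slc1a2 reached the read minimum only through these 2 groups, its rise there follows from the choice of genes. With its change taken against a floor of 3 counts per control library, the median became 0.76 at 12 h without amino acids and 0.43, 0.47 and 0.61 without glucose. Its starved level was there itself below the floor, at 0.31, 0.44, 0.44 and 0.81 of it. These medians show only how far this gene can move them. The number that fell at 3 h without glucose was 3 instead of 6 when control replicate 2 was left out. With library totals, the share of all calls that were higher moved from 46.5% to 34.2% (3 h without amino acids), from 46.8% to 25.7% and from 49.0% to 33.1% (3 and 6 h without glucose), where 18, 15 and 16 carriers then rose and 9, 7 and 8 fell.

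**Figure D1:**
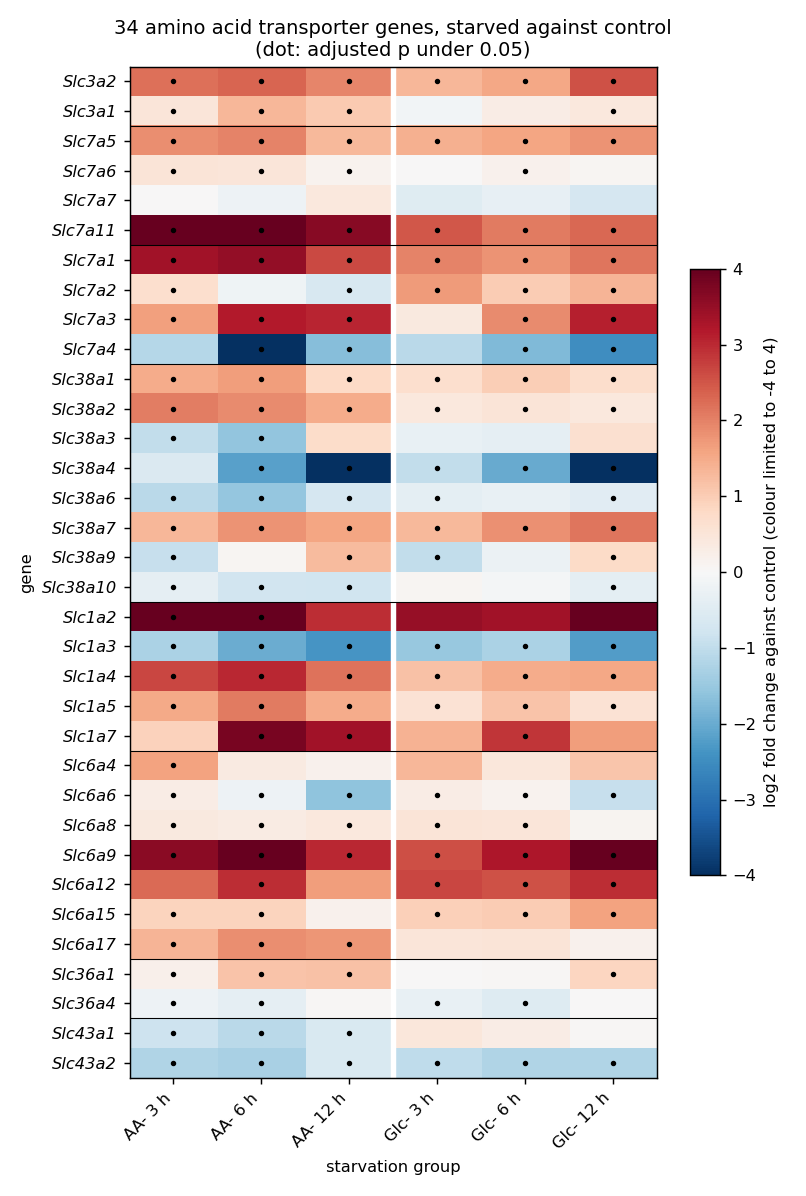
Heat map of the log2 fold change against the control (colour, one scale for all cells) for the 34 carriers (one per line) after 3, 6 and 12 h without amino acids and without glucose (columns). Slc7a11, Slc6a9, Slc7a1, Slc1a4 and Slc3a2 were higher in all 6 columns, and Slc1a3 and Slc43a2 were lower in all 6.

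Slc3a2 is the heavy chain known as 4F2hc or CD98, a glycoprotein that joins with a light chain of the Slc7 family and brings it to the plasma membrane. It rose in every starved group, and with the transcript of 1819 bases, which had the most reads, it was the carrier with the highest level per kilobase in all 7 groups. A transcript of 2813 bases had nearly the same reads. With that length Slc3a2 would stand at 67.3 CPM per kb and rank 3 in the control, rank 2 at every time without amino acids and at 3 h without glucose, and rank 1 at 6 and 12 h without glucose. Slc3a2 stood at 189.8 and 189.8 CPM in the control libraries and at 859.9 and 879.6, 955 and 948, and 739.6 and 718 CPM after 3, 6 and 12 h without amino acids. Without glucose it stood at 459 and 498, 555 and 560.1, and 1095 and 1119 CPM at the same times. Every starved library lay above both control libraries, and the highest level was reached after 12 h without glucose (log2 change 2.54, SE 0.055, adjusted p = 5.9e-25 by edgeR) rather than after 6 h without amino acids (log2 change 2.33, SE 0.054, adjusted p = 2.42e-24 by edgeR). Slc3a2 was higher without amino acids than without glucose at 3 and 6 h, by 0.86 and 0.77 on the log2 scale, and lower at 12 h (log2 difference -0.60, edgeR adjusted p = 2.48e-11).

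Slc7a5 (LAT1), the light chain that exchanges large neutral amino acids such as leucine, also rose in all 6 starved groups. Slc7a5 stood at 237 and 223 CPM in the control, at 829 and 827, 905 and 907, and 587 and 555 CPM without amino acids and at 602 and 621, 676 and 697, and 779.9 and 803 CPM without glucose. Its libraries did not overlap the control at any time, with a peak at 6 h of amino acid starvation (log2 change 1.98, SE 0.054, adjusted p = 9.52e-23 by edgeR) and at 12 h of glucose starvation (log2 change 1.78, SE 0.054, adjusted p = 1.54e-21 by edgeR). Slc7a6 (y+LAT2), which exchanges cationic for neutral amino acids, moved little: group means lay between 108 and 154 CPM. It rose by 0.52 and 0.50 (log2) at 3 and 6 h without amino acids, and its log2 difference from the control at 3 h without glucose was 0.026, or -0.14 with library totals. At 12 h without amino acids it rose by 0.14. That call was lost with RLE factors instead of TMM (0.12), without a filter (0.11) and with only the groups compared (0.094). It was also lost without control replicate 1 (0.080) or either library of its group (0.13 and 0.066). Slc7a7 (y+LAT1), a carrier of the same exchange known from kidney and gut, was measured at 0.33 to 0.98 CPM, with no change against the control that passed the test.

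Slc7a11 (xCT), the light chain that imports cystine in exchange for glutamate and so feeds glutathione synthesis, had the largest change against the control of any carrier above 1 CPM in the control. Slc7a11 stood at 8.72 and 6.42 CPM in the control, at 159.6 and 152, 234 and 233, and 90.9 and 96.5 CPM after 3, 6 and 12 h without amino acids, and at 43.1 and 40.9, 32.8 and 31.7, and 39.8 and 34.4 CPM without glucose. The ranges of the 3 conditions did not overlap at any time, with amino acid starvation highest and the control lowest. At 6 h the level without amino acids was 30.9-fold that of the control (log2 change 4.95, SE 0.094, adjusted p = 2.84e-25 by edgeR) and 7.25-fold that without glucose (log2 change 2.86, SE 0.082, adjusted p = 3.98e-21 by edgeR). Between 6 and 12 h without amino acids its mean went from 234 to 93.7 CPM. Sequences upstream of the start are shown for the 3 carriers whose promoter window held TGATGNAA. These letters are shared by known elements that bind ATF4 with C/EBP proteins. The 3 carriers differed in whether a change against the control passed the test. The stretches are from RefSeq (build GRCm38.p6, minus strand), and capitals mark matches to TGATGNAA on either strand. The Slc7a11 stretch (chr3:50443628-50443704) runs from 91 to 15 bases before the annotated start, the Slc1a4 stretch (chr11:20332694-20332742) from 29 bases before to 20 bases after it, and the Slc7a7 stretch (chr14:54417913-54417952) from 250 to 211 bases before 1 of its starts.
Slc7a11: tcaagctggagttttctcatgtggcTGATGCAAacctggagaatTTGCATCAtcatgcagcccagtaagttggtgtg
Slc1a4: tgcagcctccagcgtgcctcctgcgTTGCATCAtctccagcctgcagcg
Slc7a7: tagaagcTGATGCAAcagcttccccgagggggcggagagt

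Windows of 300 bases, from 250 before to 50 after each start, were at hand for 24 of the 34 carriers. TGATGNAA was present in the windows of 3 of these 24, and in 4.51% of all genes with a window (3.97% of 32851 windows). Slc7a11 held 2 matches that face each other, from 66 to 59 and from 47 to 40 bases before the start, and Slc1a4 held 1 across the start. Slc7a7 has several annotated starts in RefSeq, and the overlapping windows of 2 of them held matches. One held the match shown, from 243 to 236 bases before its start. The other held the same TGATGCAA, which there lies across the start, and TGATGAAA from 141 to 134 bases before it. Slc7a11 and Slc1a4 rose at all 6 starved times, while no change of Slc7a7 against the control passed the test. Slc7a7 had only 11 to 50 reads per library, where a change is easily missed. It also shares 232 of its 3315 exon bases with Oxa1l. The other carriers that rose at all 6 times, among them Slc3a2, Slc6a9 and Slc7a1, had no match or no window. The contrast therefore does not show whether the letters go with a rise. TCACGTGA, the letters of the element bound by TFEB and related factors, was found in 1 of the 24, Slc36a1 (from 4 bases before to 4 after the start), and in 1.12% of all genes. A match describes the sequence only, and binding was not measured.

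The heavy chain rose further than its light chains combined. The summed light chains (Slc7a5, Slc7a6, Slc7a7, Slc7a8, Slc7a10 and Slc7a11) stood at 95.97 and 94.5 CPM per kb in the control libraries, against 104 and 104 for Slc3a2, a ratio of 0.92 and 0.905. Without amino acids the ratio was 0.623 and 0.606 at 3 h, 0.618 and 0.621 at 6 h, and 0.512 and 0.51 at 12 h. Without glucose it was 0.812 and 0.77, 0.749 and 0.761, and 0.427 and 0.427 at the same times. The ratio was thus below the control in all 12 starved libraries and lowest after 12 h without glucose, where Slc3a2 had risen further than the light chains. Within the light chains, Slc7a5 made up 67.1 to 87% in all libraries, while the share of Slc7a11 went from 0.986 and 0.736% in the control to 7.84 and 7.81% at 6 h without amino acids and 1.68 and 1.42% at 12 h without glucose. These ratios compare transcripts, take each gene's length from the deposited table, and were not tested. Slc3a1 (rBAT), the other heavy chain, is known to pair with Slc7a9 in kidney, and Slc7a9 had 0 reads in all 14 libraries. Slc3a1 stood at 6.12 CPM in the control and rose to 15.4 CPM at 6 h without amino acids (log2 change 1.33, SE 0.12, adjusted p = 1.08e-10 by edgeR). Of its exon bases 26.5% are shared with Prepl, which went the other way there (33.5 and 24.1 CPM), and reads of the shared bases cannot be told apart.

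**Figure D2:**
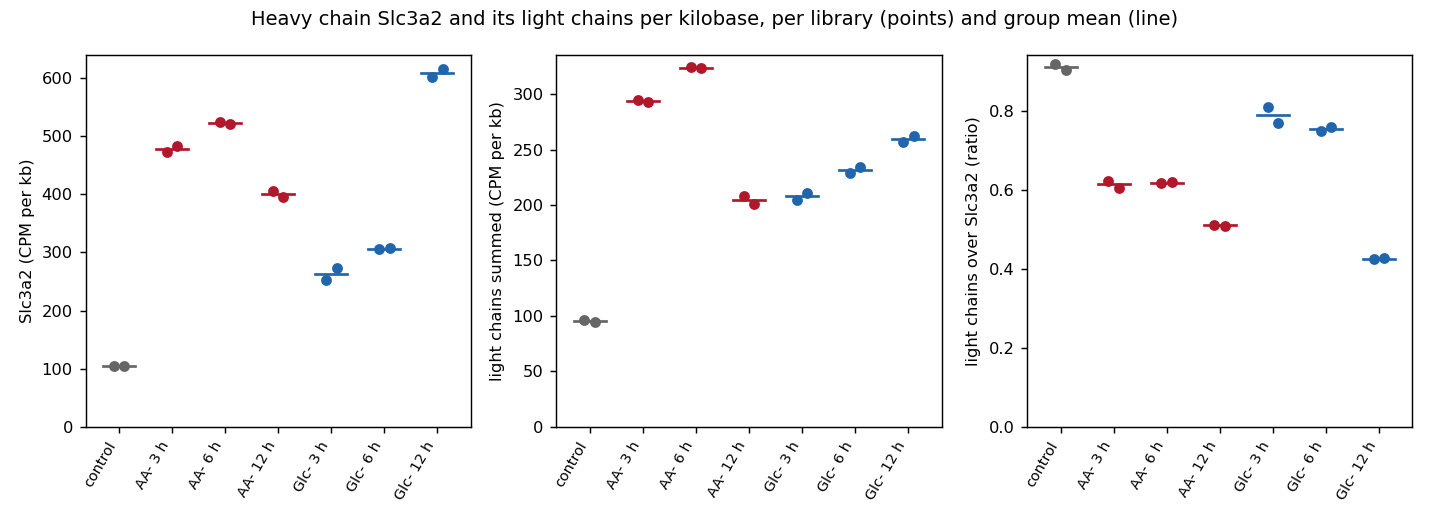
Levels per kilobase of Slc3a2 (left), of its summed light chains (middle) and their ratio (right), with points for single libraries and lines for group means. With the Slc3a2 transcript of 1819 bases, the ratio went from 0.92 and 0.905 in the control to 0.427 and 0.427 after 12 h without glucose.

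Slc7a1, Slc7a2 and Slc7a3 encode CAT1, CAT2 and CAT3, which carry the cationic amino acids arginine, lysine and ornithine without a heavy chain. The first and the third rose in both starvations, and the second differed between them. Slc7a1 stood at 109 and 111 CPM in the control, at 1175 and 1101, 1258 and 1237, and 715 and 662 CPM without amino acids and at 456 and 408, 388 and 383, and 495 and 473 CPM without glucose. Amino acid starvation gave the higher level at each time with no overlap, and the rise at 6 h was 11.3-fold (log2 change 3.50, SE 0.064, adjusted p = 7.4e-27 by edgeR). Per kilobase Slc7a1 moved from rank 10 among the carriers in the control to rank 4 at 3 h without amino acids. Slc7a3 stood at 2.25 and 3.13 CPM in the control, 8.84 and 7.97, 23.6 and 24.8, and 21.96 and 22.9 CPM without amino acids and 3.88 and 3.12, 9.72 and 10.2, and 23.8 and 22.4 CPM without glucose. At 3 h it had risen without amino acids (log2 fold change 1.64), while the log2 difference of 0.38 without glucose did not pass (edgeR adjusted p = 0.0576), and it did pass without control replicate 2, at 0.63 (edgeR adjusted p = 0.00801), or without replicate 2 of 3 h glucose starvation, at 0.53 (edgeR adjusted p = 0.0287). By 12 h the starvations had met, with a log2 difference of -0.041 (SE 0.11) between them. Slc7a2 stood at 4.67 and 4.71 CPM in the control, 7.40 and 7.64, 4.42 and 4.01, and 3.27 and 2.72 CPM without amino acids and 17.1 and 13.8, 8.89 and 9.88, and 11.96 and 11.9 CPM without glucose. Glucose starvation libraries were all above the control, whereas those without amino acids were above it at 3 h and below it at 12 h. At 12 h Slc7a2 was 3.98-fold higher without glucose than without amino acids (log2 fold change of amino acid over glucose starvation -1.99, SE 0.14, edgeR adjusted p = 4.56e-13). Slc7a4, a relative of the CAT carriers, stayed at 1.07 CPM or less in every library. It fell at 6 and 12 h in both starvations. Its call at 12 h without amino acids (log2 fold change -1.71) was lost without control replicate 2 (-1.31) or replicate 1 of its group (-1.38).

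**Figure D3:**
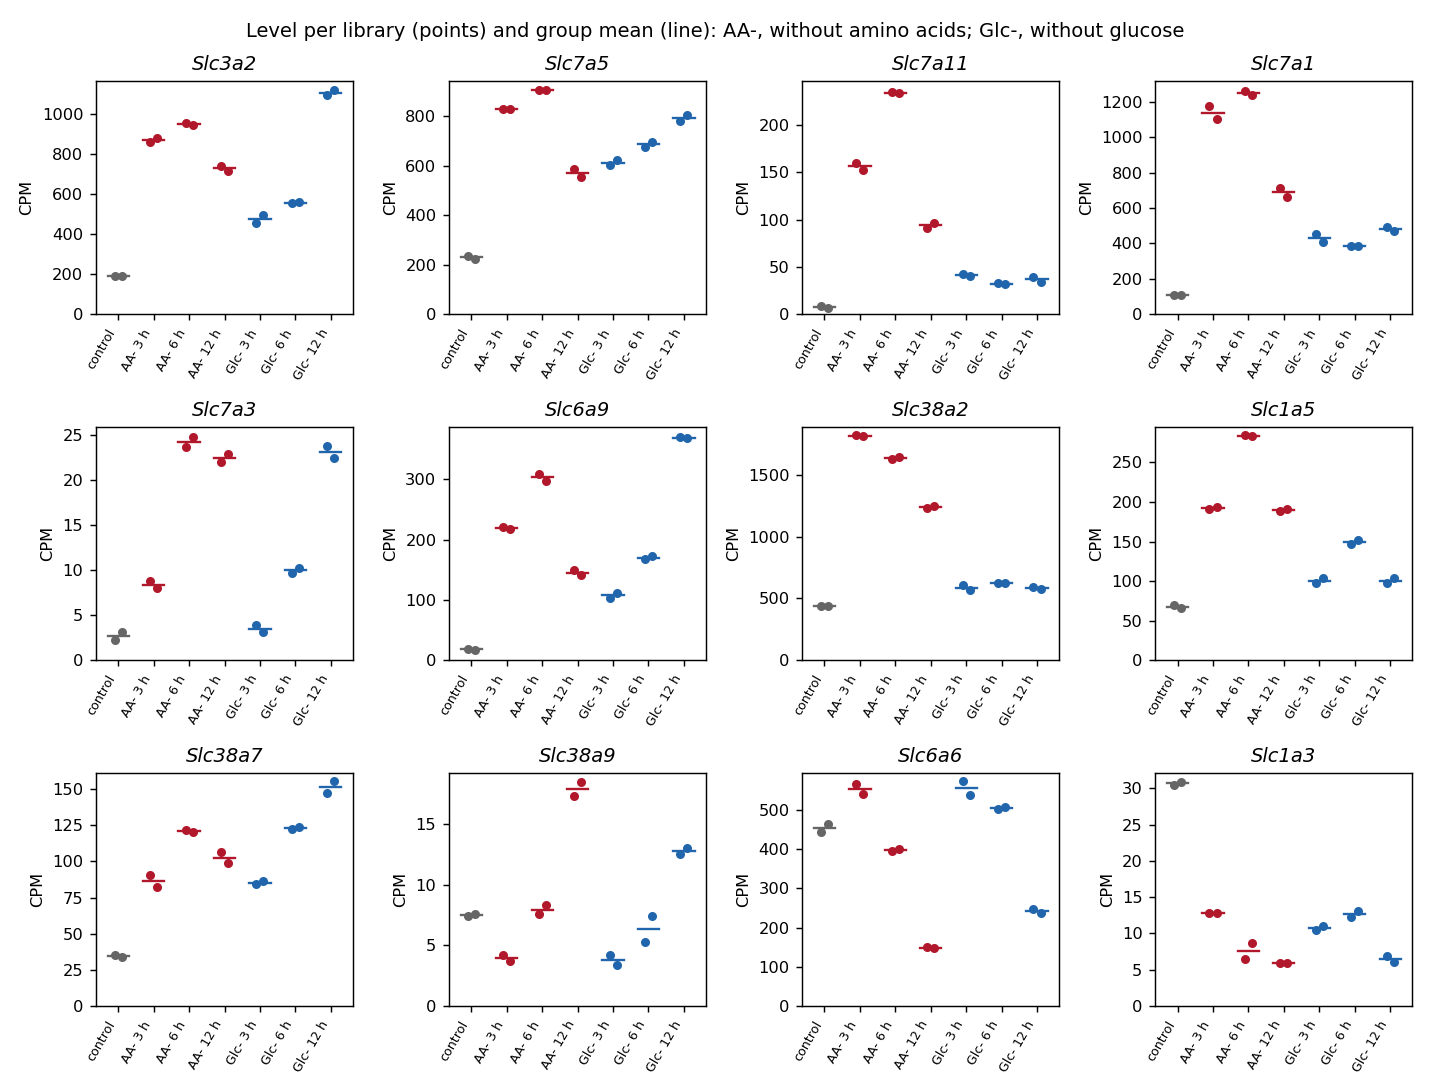
CPM per library for 12 carriers, with points for libraries, lines for group means and groups in order of starvation and time. Slc6a9 and Slc3a2 were highest at 12 h without glucose, Slc7a11, Slc7a1 and Slc1a5 at 6 h without amino acids, and Slc6a6 and Slc1a3 were lowest at 12 h without amino acids.

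Slc38a1 (SNAT1) and Slc38a2 (SNAT2) take up glutamine, alanine and other small neutral amino acids with sodium at the plasma membrane, and both rose in all 6 starved groups. Slc38a2 stood at 438 and 442 CPM in the control, 1819 and 1816, 1627 and 1641, and 1229 and 1249.7 CPM without amino acids and 610.4 and 564, 623 and 621, and 596 and 578 CPM without glucose. At 3 h, its highest time without amino acids, the log2 fold change was 2.05 without amino acids and 0.42 without glucose, and the difference between starvations was 1.63 (SE 0.053, edgeR adjusted p = 3.22e-20). Without glucose the 6 libraries stayed between 564 and 623 CPM. Slc38a1 stood at 172 and 181 CPM in the control, 502 and 476, 582 and 550.5, and 301 and 307 CPM without amino acids and 286 and 269, 343 and 349, and 291 and 280.3 CPM without glucose. The starvations differed by 0.82 and 0.71 (log2) at 3 and 6 h, and at 12 h the difference of 0.090 did not pass (edgeR adjusted p = 0.146), although it reached 0.33 with library totals (edgeR adjusted p = 4.66e-06). Slc38a4 (SNAT4), a related carrier that is abundant in liver and placenta, fell instead. It had a mean of 2.38 CPM in the control and of 0.14 and 0.09 CPM at 12 h without amino acids and without glucose (log2 fold changes -4.09 and -4.72, edgeR adjusted p = 4.04e-10 and 2.67e-10). Slc38a3 (SNAT3), a glutamine carrier of liver, kidney and brain, had group means of 0.32 to 1.52 CPM. It fell at 3 and 6 h without amino acids (log2 fold changes -0.996 and -1.57). The call at 3 h (edgeR adjusted p = 0.0485) was lost with RLE factors instead of TMM, with DESeq2 and without certain single libraries. That at 6 h was lost without control replicate 1 (-1.24) or replicate 2 of its group (-1.01).

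Slc38a6 and Slc38a10 are family members whose transport roles are less settled, and both fell without amino acids. Slc38a10 stood at 134 and 126 CPM in the control, 104 and 99.3, 76.4 and 77.9, and 77.2 and 72.04 CPM without amino acids and 138 and 135, 122 and 124, and 101 and 98.1 CPM without glucose. It fell at every time of amino acid starvation and at 12 h of glucose starvation, with log2 fold changes of -0.80 and -0.39 at 12 h, and was lower without amino acids than without glucose at all 3 times. Slc38a6 stood at 7.09 and 8.85 CPM in the control, 3.59 and 4.01, 3.000 and 2.52, and 5.06 and 4.85 CPM without amino acids and 5.87 and 6.18, 5.84 and 7.01, and 5.89 and 5.71 CPM without glucose. All 6 libraries without amino acids were below the control, by -1.54 (log2) at 6 h (SE 0.16, edgeR adjusted p = 1.62e-09). Its smaller falls without glucose, of -0.40 at 3 h and -0.46 at 12 h, were -0.24 (edgeR adjusted p = 0.348) and -0.29 (edgeR adjusted p = 0.198) without control replicate 2. At 3 h that call was also lost without either library of the glucose group, at -0.37 (edgeR adjusted p = 0.143) and -0.44 (edgeR adjusted p = 0.0755). At 12 h it was lost without glucose replicate 2, at -0.43 (edgeR adjusted p = 0.0605).

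Slc38a7, Slc38a9 and Slc36a1 encode carriers known from the lysosomal membrane: SNAT7 exports glutamine and asparagine, SLC38A9 senses arginine for mTORC1 and passes other amino acids out, and PAT1 moves small neutral amino acids with protons. All 3 were above the control at 12 h of either starvation, with different courses before that. Slc38a7 stood at 35.3 and 33.6 CPM in the control, 90.3 and 82.02, 122 and 120.1, and 107 and 98.6 CPM without amino acids and 84.4 and 86.1, 122 and 124, and 147 and 155 CPM without glucose. It rose at every time, and the starvations were close at 3 and 6 h, with log2 differences of 0.015 (SE 0.061) and -0.025 (SE 0.059), before glucose starvation went higher at 12 h (log2 difference -0.56, edgeR adjusted p = 1.78e-09). Slc38a9 stood at 7.39 and 7.62 CPM in the control, 4.19 and 3.70, 7.56 and 8.29, and 17.3 and 18.5 CPM without amino acids and 4.18 and 3.38, 5.29 and 7.38, and 12.6 and 13.01 CPM without glucose. It was below the control at 3 h in both starvations (log2 fold changes -0.93 and -0.99) and above it at 12 h (1.25 and 0.77), so that its change turned direction. From 3 to 12 h it rose by 2.18 without amino acids (SE 0.14, edgeR adjusted p = 5.3e-14) and by 1.76 without glucose. Slc36a1 had means of 26.8 CPM in the control, 31.04, 58.7 and 60.1 CPM without amino acids and 27.3, 27.8 and 48.2 CPM without glucose. It rose at 6 h only without amino acids, and the starvations differed there by 1.08 (log2, edgeR adjusted p = 4.34e-13). Its call at 3 h without amino acids (log2 fold change 0.21) was lost with library totals, at 0.037 (edgeR adjusted p = 0.7), without control replicate 1, at 0.18 (edgeR adjusted p = 0.109), and without replicate 1 of that group, at 0.16 (edgeR adjusted p = 0.182). Slc36a4 (PAT4), a related carrier with high affinity for proline and tryptophan, stood at 26.1 and 28.3 CPM in the control, 24.4 and 22.3, 23.1 and 19.6, and 29.2 and 26.6 CPM without amino acids and 21.9 and 21.98, 20.2 and 17.9, and 28.5 and 25.9 CPM without glucose. Its largest difference was at 6 h without glucose (log2 change -0.52, SE 0.095, adjusted p = 4.38e-05 by edgeR), and at 12 h both starvations were within 1 SE of the control. The Slc36a4 call at 3 h without amino acids (-0.22, edgeR adjusted p = 0.0443) was lost under several alternatives. Among them were RLE factors instead of TMM, at -0.18 (edgeR adjusted p = 0.0947), and DESeq2.

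The Slc1 family holds carriers of glutamate and carriers of small neutral amino acids, and the members with the most reads of each kind moved in opposite directions. Slc1a4 (ASCT1) and Slc1a5 (ASCT2), exchangers of alanine, serine, cysteine and, for ASCT2, glutamine, rose in all 6 starved groups. Slc1a4 stood at 34.8 and 32.3 CPM in the control, 214 and 215, 276 and 265, and 151 and 149.5 CPM without amino acids and 75.5 and 74.2, 93.1 and 93.4, and 97.8 and 99.02 CPM without glucose. Slc1a5 stood at 69.2 and 66.3 CPM in the control, 192 and 193, 284 and 283, and 188 and 191 CPM without amino acids and 97.6 and 104, 147 and 151, and 97.99 and 104 CPM without glucose. For both genes amino acid starvation was above glucose starvation at each time with no overlap. The log2 difference between starvations for Slc1a4 was 1.54 at 6 h and 0.61 at 12 h, while for Slc1a5 it was 0.94, 0.93 and 0.91 at the 3 times. Slc1a3 (GLAST), the glutamate carrier with the highest level in these cells, fell. Slc1a3 stood at 30.4 and 30.9 CPM in the control, 12.9 and 12.8, 6.52 and 8.72, and 5.98 and 5.97 CPM without amino acids and 10.5 and 10.98, 12.3 and 13.1, and 6.89 and 6.03 CPM without glucose. All 12 starved libraries were below both control libraries, and at 12 h the log2 fold changes were -2.36 (SE 0.12) without amino acids and -2.24 (SE 0.12) without glucose. The summed fibroblast markers were 8577 and 7754 CPM in the control and lowest at 12 h without amino acids. At 3 h they were 7906 and 7601 CPM without amino acids and 9561 and 9342 CPM without glucose. Their part in the fall of Slc1a3 was not tested. Slc1a2 (GLT-1), the main glutamate carrier of astrocytes, had 0 reads in both control libraries, 40 and 30 reads at 3 h and 60 and 33 reads at 6 h without amino acids, and 0 to 4 reads in the other starved libraries. That makes it at least 13.1-fold higher at 3 h and at least 15.4-fold higher at 6 h, against a floor of 3 counts per control library, and it passed the filter on low counts only through these 2 groups. Slc1a7, a glutamate carrier of the retina, stayed at 0.73 CPM or less, with 0 and 4 reads in the control libraries and 24 and 40 at 6 h without amino acids. It passed the test as higher at 6 and 12 h without amino acids and at 6 h without glucose. The call at 12 h was lost without control replicate 1 (edgeR adjusted p = 0.0847). That without glucose was lost without control replicate 1 or either library of its group (edgeR adjusted p = 0.235, 0.113 and 0.0709).

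Among the sodium- and chloride-dependent Slc6 carriers, the glycine carrier rose in all 6 starved groups, while the taurine carrier was lower at 6 and 12 h without amino acids and at 12 h without glucose. Slc6a9 (GlyT1) stood at 18.4 and 17.8 CPM in the control, 220.1 and 217, 308 and 298, and 149 and 141 CPM without amino acids and 103 and 112, 167 and 173, and 369 and 368 CPM without glucose. Amino acid starvation was higher at 3 and 6 h and glucose starvation at 12 h, each without overlap. At 12 h without glucose it was 20.4-fold above the control (log2 change 4.35, SE 0.065, adjusted p = 1.7e-28 by edgeR), the largest rise of any carrier at that time among those with a mean of at least 1 CPM in the control. Of its exon bases 27.8% are shared with Ccdc24, which had a parallel course: 14.4 CPM in the control, 106, 146 and 72.4 CPM without amino acids and 56.6, 88.6 and 177 CPM without glucose. Reads of the shared bases cannot be told apart. Slc6a6, the taurine carrier, which also answers to osmotic stress, stood at 445 and 464 CPM in the control, 566 and 541, 396 and 401, and 150.4 and 147 CPM without amino acids and 574 and 539, 502 and 507, and 247 and 237 CPM without glucose. Libraries at 12 h were below the control in both starvations (log2 fold changes -1.61, SE 0.054, and -0.91, SE 0.053), and per kilobase the gene went from rank 3 in the control to rank 12 at 12 h without amino acids. At 6 h without amino acids the fall was smaller (log2 fold change -0.19, edgeR adjusted p = 0.00226). At 6 h without glucose the log2 difference was 0.15 (edgeR adjusted p = 0.0174). That call was lost with library totals, at 0.021 (edgeR adjusted p = 0.774), and without control replicate 1 or either library of its group, at 0.12 (edgeR adjusted p = 0.11), 0.16 (edgeR adjusted p = 0.0641) and 0.15 (edgeR adjusted p = 0.0978). It was slightly higher at 3 h, by 0.28 and 0.29 (log2), of which the first became 0.11 and did not pass with library totals (edgeR adjusted p = 0.0723). Slc6a8, the creatine carrier, had group means of 103 to 148 CPM and rose in every starved group except 12 h without glucose (log2 change 0.11, SE 0.061, adjusted p = 0.121 by edgeR). Slc6a15 and Slc6a17, carriers of neutral amino acids best known from neurons, had means of 0.99 and 0.67 CPM in the control. Slc6a17 reached 2.43 CPM at 6 h without amino acids (log2 change 1.86, SE 0.29, adjusted p = 2.36e-06 by edgeR) and Slc6a15 reached 3.05 CPM at 12 h without glucose (log2 change 1.61, SE 0.25, adjusted p = 2.49e-06 by edgeR). Neural markers were present at a summed 137 to 424 CPM in all libraries. They were at 286 and 289 CPM in the control and lower where these 2 carriers peaked. They stood at 185 and 193 CPM at 6 h without amino acids and at 140 and 137 CPM at 12 h without glucose. Their part was not tested. Slc6a4 and Slc6a12 stayed below 1 CPM in every library. Slc6a4 passed the test as higher only at 3 h without amino acids. Slc6a12 passed it at 6 h without amino acids and at all 3 times without glucose, from 4 and 0 control reads. Its log2 fold change at 3 h without glucose was 2.68. That call was lost without control replicate 2, at 1.72, and without either library of its group, at 2.65 and 2.70. At 6 h without amino acids its log2 fold change was 2.95. That call was lost without control replicate 2, at 1.99, and without replicate 2 of its group, at 2.04. At 6 h without glucose its call was lost with the mean over transcripts (edgeR adjusted p = 0.0845).

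Slc43a1 (LAT3) and Slc43a2 (LAT4) let large neutral amino acids through by facilitated diffusion, and neither rose against the control at any time. Slc43a2 stood at 6.04 and 5.36 CPM in the control, 2.53 and 2.45, 2.62 and 2.09, and 3.54 and 4.002 CPM without amino acids and 3.01 and 2.63, 2.16 and 2.82, and 2.14 and 2.82 CPM without glucose. All starved libraries were below the control, with log2 change -1.28, SE 0.2, adjusted p = 1.6e-06 by edgeR at 6 h without amino acids and log2 change -1.22, SE 0.2, adjusted p = 5.29e-06 by edgeR at 12 h without glucose. Its fall at 12 h without amino acids, -0.60, was -0.51 (edgeR adjusted p = 0.0672) without control replicate 1. Slc43a1 stood at 1.90 and 2.91 CPM in the control, 1.39 and 1.32, 1.16 and 1.12, and 1.69 and 1.49 CPM without amino acids and 3.13 and 3.44, 2.79 and 3.12, and 2.69 and 2.26 CPM without glucose. At 6 h it was lower without amino acids than without glucose (log2 change -1.37, SE 0.25, adjusted p = 2.06e-05 by edgeR), with no overlap, and without glucose no change against the control passed the test. The 2 control libraries of Slc43a1 lay far apart, and without control replicate 2 the log2 fold change at 3 h without amino acids went from -0.83 to -0.49 (edgeR adjusted p = 0.179), that at 12 h from -0.60 to -0.26 (edgeR adjusted p = 0.463), and that at 3 h without glucose from 0.45 to 0.79 (edgeR adjusted p = 0.0316). The call at 12 h was also lost without replicate 2 of that group, at -0.55 (edgeR adjusted p = 0.118), and with library totals, at -0.46 (edgeR adjusted p = 0.0875).

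Set directly against each other, the starvations had different carriers on top at early and at late times. At 3 h, 14 carriers were higher without amino acids and 5 higher without glucose, at 6 h 15 and 9, and at 12 h 12 and 9. The 14 and 15 include Slc1a2, which reached the read minimum only through these libraries without amino acids. Over all genes 26.7%, 31.5% and 32.5% were higher without amino acids and 27.7%, 32.3% and 31.6% higher without glucose. The median log2 difference over the carriers was 0.27, 0.32 and 0.076, against -0.026, -0.0063 and 0.028 over all genes. The 7 carriers higher without amino acids at all 3 times were Slc1a4, Slc1a5, Slc38a2, Slc3a1, Slc6a17, Slc7a1 and Slc7a11, and the 3 higher without glucose at all 3 times were Slc38a10, Slc43a1 and Slc7a2. Over all genes 15.7% and 15.8% met these conditions. For Slc6a17 the difference at 3 h, 0.87, was 0.77 (edgeR adjusted p = 0.0951) without replicate 1 of amino acid starvation and 0.73 (edgeR adjusted p = 0.121) without replicate 2 of glucose starvation. For Slc43a1 that at 12 h, -0.65, was -0.58 (edgeR adjusted p = 0.101) without replicate 2 of amino acid starvation, -0.51 (edgeR adjusted p = 0.162) without replicate 1 of glucose starvation and -0.41 (edgeR adjusted p = 0.134) with library totals. At 6 h the largest differences above a mean of 2 CPM in either group were those of Slc7a11 (2.86), Slc7a1 (1.69), Slc1a4 (1.54) and Slc38a2 (1.39) on the side of amino acid starvation and of Slc43a1 (-1.37), Slc38a6 (-1.23) and Slc7a2 (-1.16) on the side of glucose starvation (log2). At 12 h, by the same rule, the side of glucose starvation was led by Slc7a2 (-1.99), Slc6a15 (-1.44) and Slc6a9 (-1.35). With library totals, the share of all calls at 12 h that were higher without amino acids moved from 50.8% to 65.5%, and 15 carriers were then higher and 8 lower.

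**Figure D4:**
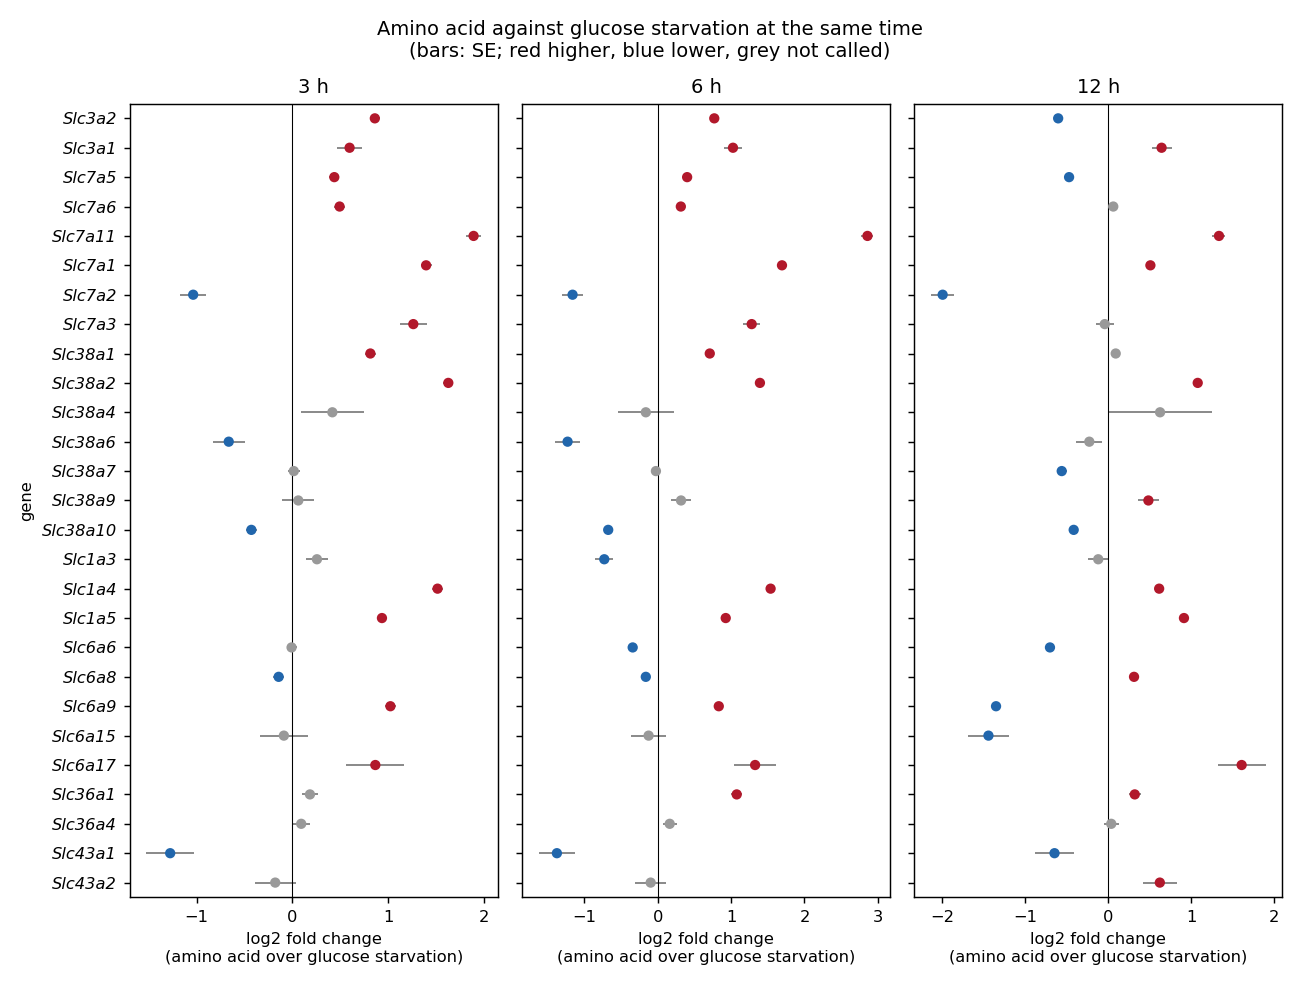
Log2 fold change of amino acid over glucose starvation (horizontal axis) at 3, 6 and 12 h (panels), for carriers with a group mean of at least 2 CPM (one per line). Bars show the SE, and colours mark carriers called higher (red), lower (blue) or not called (grey). Slc7a11 and Slc7a1 were higher without amino acids in every panel, Slc7a2 was lower in every panel, and Slc38a7 was not called at 3 and 6 h.

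The time of the highest mean varied among the carriers. Most frequent were 6 h without amino acids and, as over all genes, 12 h without glucose. The mean was highest at 3, 6 and 12 h for 9, 16 and 9 carriers without amino acids, and for 10, 9 and 15 without glucose. Of the 17696 genes tested, 6721, 3543 and 7432 were highest at 3, 6 and 12 h without amino acids. Without glucose the numbers were 5896, 4063 and 7737. The carriers' shares at the 3 times without glucose were thus close to those of all genes. Without amino acids they were not, since 6 h was the least frequent time over all genes. These shares were not tested. From 3 to 12 h without amino acids 10 carriers rose and 16 fell (all genes 35.5% and 32.9%), with a median of -0.41, and without glucose 13 rose and 6 fell (all genes 31.8% and 25.5%), with a median of 0.048. Left without replicate 2 of 3 h or replicate 1 of 12 h amino acid starvation, the number that rose was 6. Among all calls from 3 to 12 h without amino acids, the higher share moved from 51.9% to 68.0% with library totals, where 13 carriers rose and 13 fell. Slc3a2 changed by -0.25 there with TMM and by 0.055 with library totals, and Slc1a5 by -0.022 and 0.29. The difference of the changes, that of amino acid starvation minus that of glucose starvation, passed the test below 0 for 15 carriers and above 0 for 2, against 25.7% and 21.7% of all genes. The largest of these differences, among carriers above 2 CPM in the control, were those of Slc6a9 (log2 change -2.38, SE 0.079, adjusted p = 6.08e-20 by edgeR), Slc3a2 (log2 change -1.46, SE 0.073, adjusted p = 7.97e-16 by edgeR) and Slc7a3 (log2 change -1.31, SE 0.18, adjusted p = 4.11e-07 by edgeR). Slc6a9 and Slc3a2 fell from 3 to 12 h without amino acids, for Slc3a2 not with library totals, and rose without glucose, whereas Slc7a3 rose in both and rose more without glucose. With library totals 8 carriers passed above 0 and 15 below, and the share of all calls that were above 0 moved from 45.8% to 66.1%. Slc1a2, which reached the read minimum only through 3 and 6 h without amino acids, is among the carriers highest at 6 h there. With TMM it is also among those that fell from 3 to 12 h there and those with a difference of changes below 0.

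The ladder of levels, taken per kilobase of transcript so that genes can be compared, was reordered at a few places. With the transcript of 1819 bases for Slc3a2, Slc38a2 ranked 2 in the control and ranked 2 without amino acids at each time, at 389.99, 351 and 266 CPM per kb, and ranked 3 without glucose, below Slc7a5. Slc6a9 moved from rank 14 (5.19 CPM per kb) to rank 4 (106 CPM per kb) at 12 h without glucose. Slc7a11, for all its increase, moved from rank 21 to rank 13 at 6 h without amino acids, with 25.3 CPM per kb against 523 for Slc3a2. In the control Slc7a6, Slc38a10, Slc6a8, Slc38a1 and Slc1a5 lay within 24.5 to 28.7 CPM per kb, in an order that the spread between libraries and the choice of transcript length do not settle.

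The table lists several transcripts for 26 of the 34 carriers, most with nearly the same reads. Shorter transcripts were looked at where they had at most 0.6 of the length used and at least 1000 reads. For Slc7a11, Slc38a1 and Slc1a3 the percentage of reads in a shorter transcript varied between groups. Other carriers varied too. For Slc6a8 (2151 bases) it was 69.4 and 68.1 in the control and 77.6 and 73.7 at 12 h without amino acids. For Slc7a11 the reads of the transcript of 2419 bases, as a percentage of those of the transcript of 9223 bases, were 11 and 13.7 in the control, 19.7 and 19.4, 19 and 18.4, and 18.3 and 16.9 without amino acids and 28.3 and 28.6, 29 and 29.8, and 29.7 and 32.1 without glucose. The 3 conditions did not overlap: the percentage was lowest in the control and highest without glucose. The control values rest on 44 and 40 reads of the shorter transcript. For Slc38a1 the transcript of 3183 bases held 46.1 and 45.3% of the reads of that of 6966 bases in the control, 47.2 and 45.8%, 46.5 and 46.9%, and 46.4 and 43.6% without amino acids and 60.3 and 59.7%, 51.2 and 47.6%, and 60 and 57.3% without glucose. Here the libraries without glucose were above all others, least so at 6 h. For Slc1a3 the transcript of 728 bases held 12.4 and 12% of the reads of that of 4163 bases in the control, 19.2 and 19.4%, 21.4 and 20.8%, and 15.6 and 11.1% without amino acids and 12.6 and 13.7%, 19.2 and 11.9%, and 15.4 and 19.4% without glucose. The libraries at 3 and 6 h without amino acids were above the control, while those at 12 h without amino acids and at 6 h without glucose overlapped it. These observations were made after the values were seen and were not tested, and how reads were assigned to overlapping transcripts is not given in the sources used here.

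**Figure D5:**
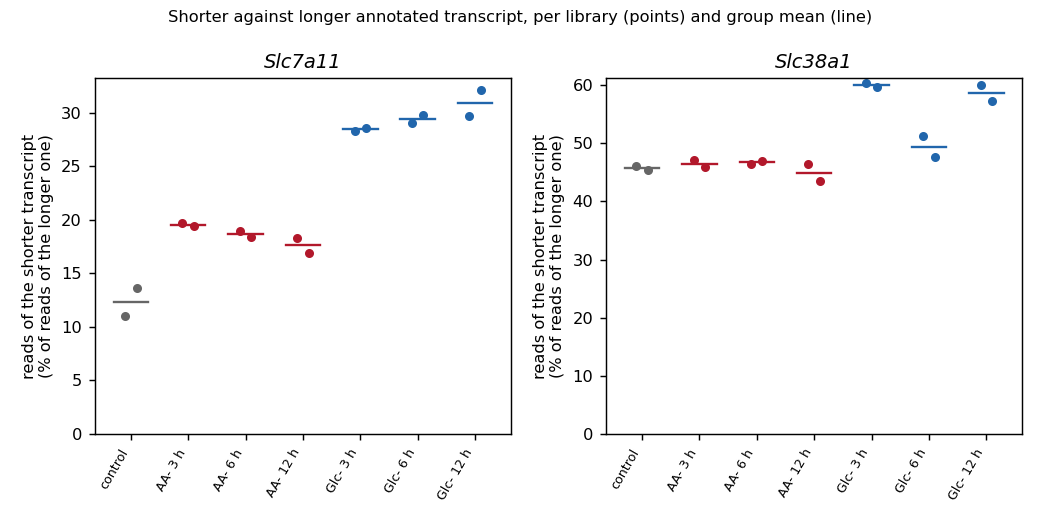
Reads of a shorter transcript as a percentage of those of the longer one, for Slc7a11 (2419 against 9223 bases) and Slc38a1 (3183 against 6966 bases), with points for libraries and lines for group means. For Slc7a11 the control libraries were at 11 and 13.7 and those of 12 h without glucose at 29.7 and 32.1.

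Other carriers of amino acids and peptides, in lysosomes, mitochondria and synaptic vesicles, fell more often than they rose at 3 and 6 h without amino acids and at 3 h without glucose. The counts were close at the other times. Of 24 listed genes 19 were tested, and 6 rose and 9 fell at 3 h, 6 and 11 at 6 h, and 8 and 7 at 12 h without amino acids, with medians of -0.51, -0.39 and 0.19. Without glucose 4, 5 and 7 rose and 7, 6 and 7 fell at the 3 times, with medians of -0.16, 0.15 and 0.056. Over all genes 27.9%, 32.3% and 34.9% rose and 32.1%, 33.3% and 32.0% fell without amino acids. Without glucose 20.3%, 23.3% and 30.4% rose and 23.1%, 24.2% and 28.0% fell. Slc16a10 (TAT1), an exporter of aromatic amino acids, was higher at all 6 times, at 11.1 CPM in the control, 32.9 CPM at 12 h without amino acids and 20.01 CPM at 12 h without glucose. Slc15a4, a lysosomal carrier of histidine and dipeptides, rose without amino acids, from 27.7 to 70.9 CPM at 6 h, and had 24.5 CPM at 6 h without glucose. Ctns (cystinosin), which lets cystine out of the lysosome, was at 19.4 CPM in the control and rose to 44.3 and 44.7 CPM at 12 h without amino acids and without glucose. The mitochondrial aspartate-glutamate carriers Slc25a12 and Slc25a13 fell at 12 h in both, from 56.6 to 34.4 and 22.7 CPM and from 24.1 to 7.77 and 11.8 CPM.

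Of 14 listed carriers of glucose and monocarboxylates 13 were tested. Without glucose 4, 4 and 6 rose and 3, 1 and 1 fell at 3, 6 and 12 h, against 3, 2 and 4 that rose and 5, 7 and 2 that fell without amino acids. Over all genes 20.3%, 23.3% and 30.4% rose and 23.1%, 24.2% and 28.0% fell without glucose. Without amino acids 27.9%, 32.3% and 34.9% of all genes rose and 32.1%, 33.3% and 32.0% fell. Slc2a1 (GLUT1) had 60.9 CPM in the control, 128, 109 and 118 CPM without glucose and 74.4, 62.9 and 47.4 CPM without amino acids. At 12 h its log2 difference between amino acid and glucose starvation was -1.32 (edgeR adjusted p = 2.81e-16), the reverse of that of Slc38a2 and Slc1a5. The genes of the response to amino acid loss were a list of 28 kinases, factors and known targets. Of these, 25, 24 and 25 rose and 2, 1 and 2 fell without amino acids at 3, 6 and 12 h. Without glucose 24, 24 and 26 rose and 2, 1 and 1 fell at these times. The medians of the 28 genes were 2.35, 2.56 and 2.18 without amino acids and 1.42, 1.71 and 2.13 without glucose. Trib3, a pseudokinase induced by ATF4, went from 6.88 CPM to 347 CPM at 6 h without amino acids and 267 CPM at 12 h without glucose. From 3 to 12 h, the change without amino acids minus that without glucose passed the test below 0 for 24 of the 28 genes. Over all genes 25.7% did so.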

How the data were processed

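RNA of 14 MEF libraries in 7 groups of 2 was analysed, with groups and replicate numbers from the sample titles. The values are counts, deposited by the authors as 1 whole number per transcript and library, and the submitters' processing notes name STAR, bedtools and the build GRCm39. Versions, annotation, counting rules and use of strand are not given in the sources used here. Of 67457 lines, 58 had no gene name, with 0% of the reads. Transcripts of a gene repeat its reads, so each of 40800 genes was represented by the transcript with the most reads (13432 genes, 32.9%, had several). This left 35270767 to 55349659 reads per library. Intervals and standard errors cover the spread between libraries only. In R 4.3.3 with edgeR 4.0.16, genes were filtered with filterByExpr (17696 left), scaled with TMM and fitted with a quasi-likelihood model (robust) of 7 group means, with 7 residual degrees of freedom and 12 two-sided comparisons, each adjusted by Benjamini-Hochberg over all genes tested at a threshold of 0.05. The biological coefficient of variation was 5.78%. CPM per kb are CPM divided by the deposited transcript length. Alternatives tried were RLE factors, library totals, DESeq2 1.42.0, no filter (at least 1 read), at least 1 CPM in 4 libraries, a fit of the compared groups alone, a replicate block, the mean over transcripts, other read minima and leaving out each library. The fit was tested on simulated data. Replicates differed by more than sampling noise (chi-square of 3.40 to 14.0 per degree of freedom), so none was taken for a repeat of another. All members may be named. Values in every library are given for a list of 14 carriers and for the 3 highest and 3 lowest called fold changes (mean log2 CPM of at least 1) in each comparison with the control or between starvations. Of other lists, up to 4 called genes with the smallest p, and any called carrier at 2-fold or more, may be named. Members and lists were chosen with earlier results of these data known. The annotation at hand (GENCODE M21, GRCm38) was of another build, so it served only for exon overlap, which 10 of the 34 carriers have with another gene, and promoters are RefSeq's. Promoter windows, and the motif searches on both strands, cover 24 carriers.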

Additional observations from a re-analysis of the deposited data

Results flagged for a closer look

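For 17 of the 34 carriers the change from 3 to 12 h differed between the starvations by edgeR's test of the difference itself (change without amino acids minus change without glucose, log2, adjusted p under 0.05), and so it did for 47.5% of all genes tested, a share close to that of the carriers. The difference was -2.38 (SE 0.079) for the glycine carrier Slc6a9, -1.46 (SE 0.073) for the heavy chain Slc3a2, -0.91 for its partner Slc7a5, -0.56 for Slc7a11 and -0.43 for Slc7a6. Among the cationic carriers it was -1.31 for Slc7a3, -0.96 for Slc7a2 and -0.89 for Slc7a1. The neutral carriers Slc1a4, Slc38a1 and Slc38a2 stood at -0.90, -0.72 and -0.55, the lysosomal carrier Slc38a7 at -0.57, the taurine carrier Slc6a6 at -0.69 and the neutral carrier Slc6a15 at -1.35 (SE 0.35). The creatine carrier Slc6a8 had a difference above 0, of 0.45, and so had Slc43a2, at 0.80 (SE 0.3). Slc43a2 lost its call without any of 5 single libraries, where the difference lay between 0.60 and 0.82. For Slc1a2 the fitted difference was -5.83 (SE 2.1), which rests on libraries at or near 0 reads, is no bound, and was -1.76 (edgeR adjusted p = 0.9) without replicate 2 of 12 h glucose starvation.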

How the results depend on the processing

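The number of carriers called in each of the 12 comparisons stayed within 1.5 times its reported value under all alternatives run. Over carriers and comparisons, no value changed direction with a call at stake except with library totals, where 4 did: Slc7a6 at 3 h without glucose against the control went from 0.026 to -0.14, Slc1a5 and Slc3a2 from 3 to 12 h without amino acids from -0.022 to 0.29 and from -0.25 to 0.055, and the difference of the changes of Slc1a5 from -0.024 to 0.22. The cause was not tested. Calls lost and gained were 10 and 16 with library totals, 10 and 6 with RLE factors, 12 and 3 with DESeq2, 8 and 2 without a filter, 3 and 8 with the stricter one (fewer genes tested), 7 and 5 with only the groups compared, and 7 and 6 with the mean over a gene's transcripts. The replicate numbers did not pair the libraries (correlations of -0.035 to 0.054 over 21 pairs of groups), and a replicate block lost 0 calls and gained 4, among them Slc3a1 at 6 h without glucose (log2 fold change 0.30, edgeR adjusted p = 0.0496). A minimum of 70 or 280 reads would give 37 or 29 carriers. Carriers near 1 CPM or below (Slc1a2, Slc1a7, Slc6a4, Slc6a12, Slc7a4, Slc7a7 and Slc38a3) rest on few reads, and each of these lost at least 1 call when 1 library was left out.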
